A study of Mus musculus with 12 samples.

Results

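The genes described here are the receptors and ligands of the PD-1, ICOS and CD28 co-signalling systems. They were chosen by symbol from a list of 10 names: Pdcd1, Cd274, Pdcd1lg2, Icos, Icosl, Cd80, Cd86, Cd276, Cd28 and Ctla4. The count table held 9 of them among its 545 immune genes, and Cd276 was not analysed here. RNA came from microglia, the resident macrophages of the brain, of the hippocampus of male Balbc pups aged 14 days after birth (P14, n = 6) or 28 days (P28, n = 6). Every pup was raised under control conditions and came from a litter of its own, and the stressed animals of the study were not analysed here. The cells were enriched on a Percoll gradient and flow sorted, and the markers of the sorting gate are not given in the sources used here. RNA was read out on the nCounter mouse immune panel, in which a probe carrying a fluorescent barcode binds each target and single barcodes are counted, with no sequencing. The comparison asks how these genes differ between the ages, and whether a ligand and its receptor differ alike.

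Co-signalling receptors set how a T cell responds once its antigen receptor has been engaged. CD28 (Cd28) promotes activation when it binds CD80 or CD86 on an antigen-presenting cell, and CTLA-4 (Ctla4) competes for the same ligands and restrains the response. ICOS (Icos), an activating relative of CD28, binds ICOS ligand (Icosl), and PD-1 (Pdcd1), an inhibitory receptor, binds PD-L1 (Cd274) and PD-L2 (Pdcd1lg2). All these ligands belong to the B7 family. The ligands are typical of myeloid cells, including activated microglia, while the receptors are best known from T cells, with PD-1 also found on myeloid cells.

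Pdcd1, Cd274 and Icosl were the members with more RNA at P28 than at P14, and the 250 bases before their transcription starts are shown so that the regions can be compared. They are RefSeq promoter windows of build GRCm38.p6, each printed 5′ to 3′ on the strand of its gene: chr1:94052554-94052803 on the minus strand for Pdcd1, chr19:29367188-29367437 on the plus strand for Cd274 and chr10:78069118-78069367 on the plus strand for Icosl. Capitals mark matches on either strand to any of the 4 motifs searched.
Pdcd1: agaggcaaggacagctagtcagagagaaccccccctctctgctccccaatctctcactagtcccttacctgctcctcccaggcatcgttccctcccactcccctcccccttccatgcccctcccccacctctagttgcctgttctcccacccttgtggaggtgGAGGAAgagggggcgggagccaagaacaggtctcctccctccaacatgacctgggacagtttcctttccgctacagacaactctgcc
Cd274: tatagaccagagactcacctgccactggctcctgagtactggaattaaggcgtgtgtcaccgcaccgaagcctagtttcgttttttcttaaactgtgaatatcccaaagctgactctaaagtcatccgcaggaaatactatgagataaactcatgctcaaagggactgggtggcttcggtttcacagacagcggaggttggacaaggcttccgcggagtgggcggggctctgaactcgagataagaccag
Icosl: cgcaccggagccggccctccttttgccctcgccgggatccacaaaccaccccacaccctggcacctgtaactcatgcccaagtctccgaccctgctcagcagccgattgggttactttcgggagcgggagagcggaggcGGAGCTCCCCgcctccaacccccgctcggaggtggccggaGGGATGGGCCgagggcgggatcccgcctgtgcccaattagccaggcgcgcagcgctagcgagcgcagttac
The motifs were TTCNNNGAA, the letters of a STAT site, GAAA followed after NN by GAAA again, those of an interferon response element, GGG followed after NNNNN by CC, those of an NF-kB site, and GAGGAA, the core of an ETS site such as that of PU.1. The Pdcd1 window held GAGGAA once, with its first base 87 bases before the start. The Icosl window held 2 matches to the NF-kB letters, which did not overlap: GGAGCTCCCC, a match on the strand opposite to the one printed, and GGGATGGGCC, a match on the printed strand. The Cd274 window held no match to any of the 4. Of 32817 promoter windows of this length, 7.01% held TTCNNNGAA, 2.97% the interferon response letters, 45.8% the NF-kB letters and 23.3% GAGGAA. No motif searched was found in more than 1 of the windows printed. Of the 9 members, 6 had a window in that table: these genes, Pdcd1lg2, Cd80 and Ctla4. Among the windows not printed, those of Pdcd1lg2 and Cd80 also held the NF-kB letters and that of Pdcd1lg2 also held GAGGAA.

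Total raw counts over the 545 genes ran from 356398 in P14 sample 5 to 1534665 at P28. Samples are named by the numbers in their labels. Each lane has a background threshold, the mean of its 8 negative-control probes plus 2 SD, and the 366 genes whose raw count was over it in 40% or more of the 12 samples were taken as present. Levels below are scaled counts, that is raw counts divided by a factor from 6 reference genes, and probes differ in efficiency, so levels are not compared between genes. Log2 fold changes, given with the SE, compare P28 with P14, and adjusted p-values come from edgeR's quasi-likelihood test with Benjamini-Hochberg adjustment over the 366 genes. In that test 112 genes passed an FDR of 0.05, which is 30.6% of those tested, 16.7% higher and 13.9% lower at P28. The libraries of P14 samples 4 and 5 had the lowest totals of that age (772723 and 356398) and lay away from the rest of their group. Values without them are therefore also given for part of the results that move. The positive-control probes summed to 14924 to 20649 at P14 and to 36530 to 41574 at P28, without overlap. Lane efficiency and age therefore cannot be told apart where scaling rests on those probes. Reference-gene scaling and ratios within a lane divide out a factor shared by all probes. Any other effect of the lanes is aligned with age in every comparison here and was not tested. In bulk RNA, fewer cells of a type and less RNA per cell cannot be told apart. All 11 genes in the table from the list taken for microglia, among them Csf1r, Cx3cr1, Trem2 and C1qa, were above the lane threshold in 12 of 12 samples. Detection of that list does not by itself show which cells were present.

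Of the 9 members, 6 were present: Pdcd1, Cd274, Icos, Icosl, Cd80 and Cd86. Of these 6, 3 rose from P14 to P28 (Pdcd1, Cd274 and Icosl), 1 fell (Icos) and 2 did not pass the test (Cd80 and Cd86). The 4 that passed were also those whose 6 samples at 1 age did not overlap the 6 at the other, a pattern found in 20.8% of the 366 genes (12.8% higher and 7.92% lower at P28). Pdcd1lg2, Cd28 and Ctla4 did not reach presence and have no test. Over the 366 genes the log2 fold changes had a median of 0.0026. Ordered by log2 fold change from the top, Pdcd1 stood at place 12, Cd274 at 19 and Icosl at 20 of 366. Icos stood at place 63 from the bottom.

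**Figure D1:**
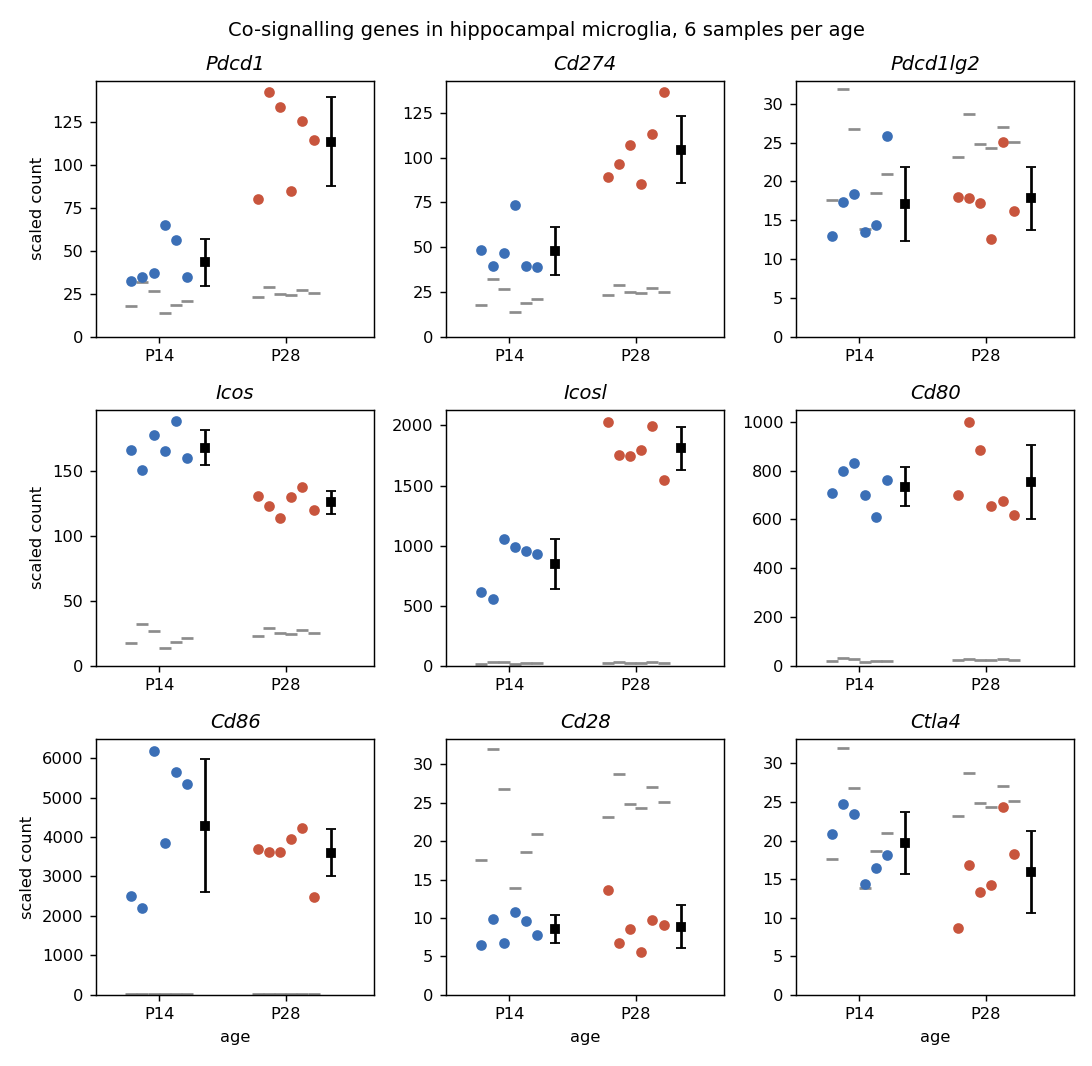
Scaled counts (y axis) of the 9 members in each sample at P14 (blue) and P28 (red), with the mean and SD of 6 samples as black squares and bars; grey ticks are each sample's lane threshold on the same scale. Pdcd1, Cd274, Icosl and Icos show no overlap between the ages, while Cd28 lies below the threshold in all 12 samples.

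**Figure D2:**
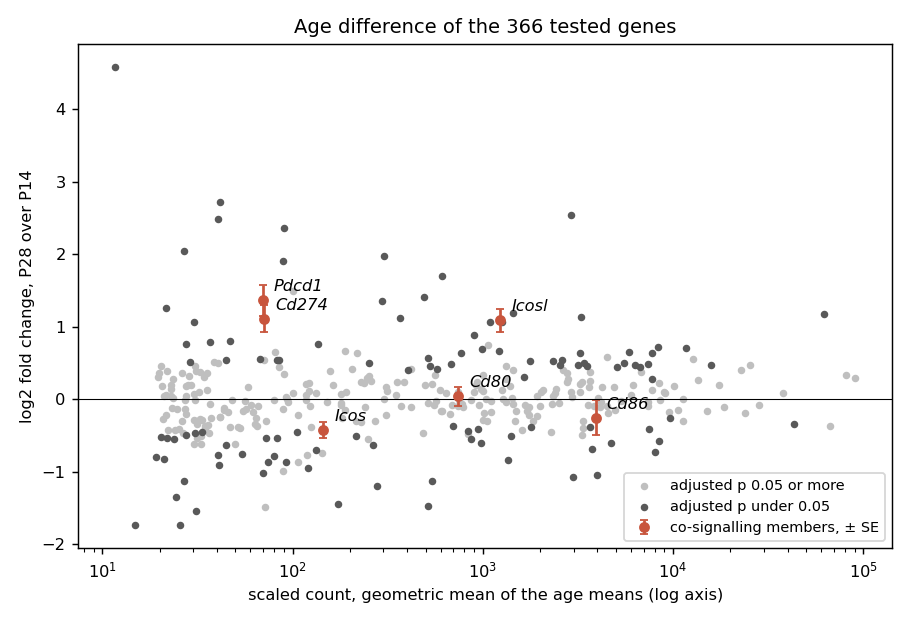
Log2 fold change, P28 over P14 (y axis), of the 366 tested genes against their scaled count on a log axis (x axis); dark points passed an FDR of 0.05, and the 6 present members are in red with their SE. Pdcd1, Cd274 and Icosl lie near or above 1, Icos lies at -0.42, and Cd80 and Cd86 did not pass.

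Both genes of the PD-1 and PD-L1 pair rose. Pdcd1, the receptor, had a lowest value of 32.6, a median of 35.7 and a highest of 64.8 scaled counts at P14, against 79.7, 119.9 and 142 at P28. The highest P14 sample, number 25, thus lay under the lowest P28 sample, number 118. The mean went from 43.2 ± 13.6 to 113 ± 25.9 (SD, n = 6 each), a log2 fold change of 1.37 ± 0.21 (adjusted p = 0.000201), or 2.58-fold. Its raw counts were small, between 14 and 155, and all 12 exceeded their lane thresholds, the nearest being P14 sample 5 with 14 counts against a threshold of 12.9. With the mean of the negative probes subtracted from every count, the log2 fold change was 1.67 ± 0.30.

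Cd274, the gene of the ligand PD-L1, rose by a similar factor. Its lowest, median and highest values were 38.8, 43.2 and 73.8 scaled counts at P14 and 85.2, 102 and 137 at P28. The means were 47.8 ± 13.4 and 105 ± 19.0 (SD, n = 6 each), with a log2 fold change of 1.11 ± 0.18 (adjusted p = 0.0003), or 2.16-fold. P14 sample 25 was the highest of its age for both genes of the pair, and it lay well above the other P14 samples for Cd274, which reached at most 48.2. Subtracting the negative probes gave a log2 fold change of 1.35 ± 0.25 for Cd274.

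Pdcd1lg2, the gene of the other PD-1 ligand, stayed at background at both ages. It ranged from 13.0 to 25.9 scaled counts at P14 and from 12.6 to 25.1 at P28, and 1 of 6 samples exceeded its lane threshold at P14 and 0 of 6 at P28. The negative probes averaged 12.1 ± 3.01 and 12.3 ± 0.72 scaled counts at the ages, so a difference in Pdcd1lg2 was not detectable at this depth. In the RefSeq gene table, Cd274 and Pdcd1lg2 lie next to each other with 0 protein-coding genes between them, and of the pair only Cd274 was present.

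The ICOS pair moved in opposite directions, the ligand up and the receptor down. Icosl had 552, 941 and 1052 scaled counts as its lowest, median and highest values at P14, and 1544, 1775 and 2027 at P28. All 6 P28 samples lay above all 6 P14 samples. Its mean went from 847 ± 211 to 1809.8 ± 178 (SD, n = 6 each), a log2 fold change of 1.09 ± 0.16 (adjusted p = 0.000128), or 2.13-fold. P14 samples 4 and 5 were the lowest, at 610 and 552 against 927 to 1052 in the other P14 samples, and without them the log2 fold change was 0.89 ± 0.09 (adjusted p = 8.5e-06).

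Icos, the receptor, had 151, 166 and 188 scaled counts as its lowest, median and highest values at P14 and 113, 126 and 138 at P28, again without overlap. It fell from 168 ± 13.1 to 126 ± 8.66 (SD, n = 6 each), a log2 fold change of -0.42 ± 0.11 (adjusted p = 0.00933). The change in Icos was the smallest of the 4 that passed, and its samples were also the most alike within an age, with a coefficient of variation of 7.81% at P14 and 6.89% at P28 against 9.85% to 31.5% for Pdcd1, Cd274 and Icosl. All 12 samples lay above their thresholds.

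Cd80 and Cd86, the ligands shared by CD28 and CTLA-4, did not pass the test. Cd80 had 609, 734 and 830.4 scaled counts as its lowest, median and highest values at P14 and 617, 688 and 998 at P28. The ages overlapped, and the log2 fold change was 0.04 ± 0.14 (adjusted p = 0.856). That sign changed with the scaling, from 0.17 with the authors' factors to -0.12 with total counts and -0.69 with positive controls alone.

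Cd86 varied most within P14 of all present members. It had 2211, 4593 and 6171 scaled counts as its lowest, median and highest values at P14 and 2484.5, 3666 and 4231 at P28, with means of 4284 ± 1685 and 3604 ± 597 (SD, n = 6 each). The log2 fold change was -0.25 ± 0.24 (adjusted p = 0.478). P14 samples 4 and 5 had 2495 and 2211, below the other P14 samples, which held 3849 to 6171. Without those samples Cd86 passed the test as lower at P28, at -0.54 ± 0.15 (adjusted p = 0.0122), where 43.2% of all genes passed and 24.6% were lower. It also passed with positive controls alone, at -1.09 ± 0.41 (adjusted p = 0.0409), and in none of the other alternatives run.

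The receptors of these ligands did not reach presence. Cd28 ranged from 6.52 to 10.8 scaled counts at P14 and from 5.52 to 13.6 at P28, and 0 of 12 samples exceeded their lane threshold. Ctla4 ranged from 14.4 to 24.7 at P14 and from 8.62 to 24.3 at P28, and 2 of 6 samples exceeded the threshold at P14 and 0 of 6 at P28. Icos lies beside them on the same chromosome, with 0 protein-coding genes between Cd28 and Ctla4 and 0 between Ctla4 and Icos in the RefSeq table, and was the only receptor of these neighbours that was present. Their raw counts, 4 to 19 for Cd28 and 10 to 30 for Ctla4, allow no statement on an age difference.

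Ligand and receptor were then set against each other within each sample, as the log2 ratio of their raw counts with 1 count added to both. This ratio does not depend on any scaling, and only its change between ages is read, since its level also reflects the probes. Of the 7 ligand-receptor pairs named, 2 had both genes present and were tested with an exact two-sided permutation test over the 924 arrangements of the samples, which cannot give a p under 0.00216. The Icosl to Icos ratio had lowest, median and highest values of 1.85, 2.44 and 2.57 at P14 and 3.68, 3.84 and 3.95 at P28. Every P28 sample lay above every P14 sample, and the mean rose by 1.55 ± 0.14 (SE), a 2.92-fold shift toward the ligand (exact p = 0.00216, adjusted over the 2 pairs 0.00433).

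The Cd274 to Pdcd1 ratio showed no such shift. It had lowest, median and highest values of -0.49, 0.18 and 0.55 at P14 and -0.56, -0.066 and 0.25 at P28, with the ages overlapping. The difference was -0.25 ± 0.19 (SE; exact p = 0.206, adjusted over the 2 pairs 0.206). This does not show that receptor and ligand changed by the same factor. P14 sample 61, with -0.49, lay apart from its group, and without it the difference was -0.38, with an exact p of 0.0303.

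**Figure D3:**
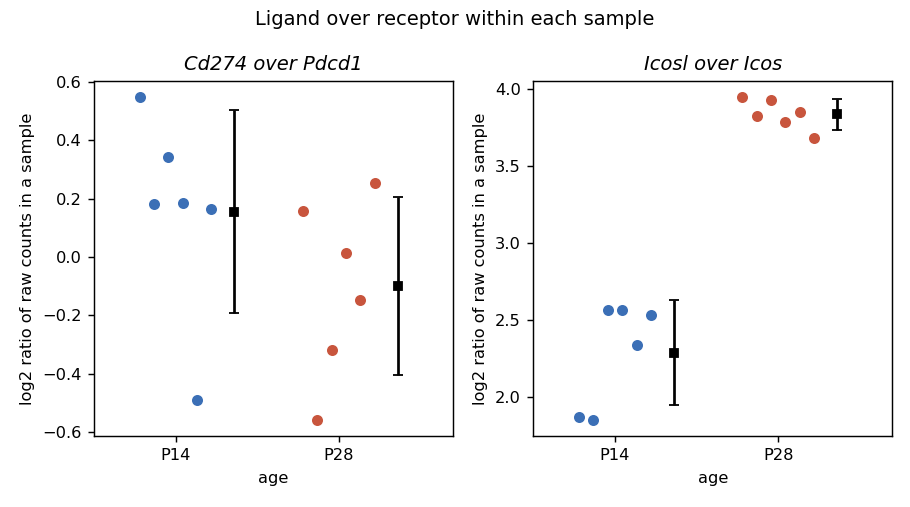
Log2 ratio of ligand to receptor raw counts in each sample (y axis) at P14 and P28 (x axis), for Cd274 over Pdcd1 and Icosl over Icos; squares and bars are the mean and SD of 6 samples. The Icosl over Icos ratio lies between 1.85 and 2.57 at P14 and between 3.68 and 3.95 at P28, while the Cd274 over Pdcd1 ratios overlap.

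The other 13 pairs among the 6 present members were compared in the same way, a family added after the values were seen and adjusted over those 13. Icosl rose relative to the other B7 ligands Cd80 (1.11 ± 0.22 log2 units, exact p = 0.00216, adjusted 0.00402) and Cd86 (1.29 ± 0.14, with the same exact and adjusted p). Cd274 also rose relative to Cd80 (1.10 ± 0.23, exact p = 0.00433, adjusted 0.00703) and to Cd86 (1.28 ± 0.37, exact p = 0.00216, adjusted 0.00402). The log2 ratio of Cd274 to Icosl moved by -0.0075 ± 0.24 (exact p = 0.974), and that of Cd80 to Cd86 by 0.19 ± 0.31 (exact p = 0.541). Leaving out P14 samples 4 and 5, Cd274 to Icosl moved by 0.21 (exact p = 0.41) and Cd80 to Cd86 by 0.58 (exact p = 0.0286, not adjusted). Between the receptors, Pdcd1 rose relative to Icos by 1.79 ± 0.22 (exact p = 0.00216, adjusted 0.00402). Of the 4 B7 ligands present, Cd274 and Icosl rose against Cd80 and Cd86 in the same samples, and Pdcd1lg2, at background, was in no pair.

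Fold changes, unlike these ratios, rest on the scaling. Under positive controls alone, the share of the 366 genes that passed was 37.2% (2.19% higher, 35% lower) and the median fold moved to -0.74. There Pdcd1 (0.61 ± 0.36), Cd274 (0.39 ± 0.35) and Icosl (0.30 ± 0.38) no longer passed, while Icos passed at -1.14 ± 0.37. Relative to that median they stood at 1.34, 1.12, 1.04 and -0.40. In the other 27 of 28 alternatives Pdcd1, Cd274 and Icosl passed as higher, and Icos passed as lower in 28 of 28. With the authors' factors, the scaling nearest to the deposited scaled values, the median moved to 0.13 and the log2 fold changes were 1.50, 1.24, 1.22 and -0.30, or 1.37, 1.11, 1.09 and -0.43 relative to it. With limma on the authors' scaled values, 34.8% of 336 genes passed (27.1% higher and 7.74% lower), Pdcd1, Cd274 and Icosl among the higher and Icos among the lower. The authors' deposited table gives ratios of the age means of 2.87 for Pdcd1, 2.39 for Cd274, 2.34 for Icosl, 0.81 for Icos, 1.12 for Cd80 and 0.92 for Cd86.

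**Figure D4:**
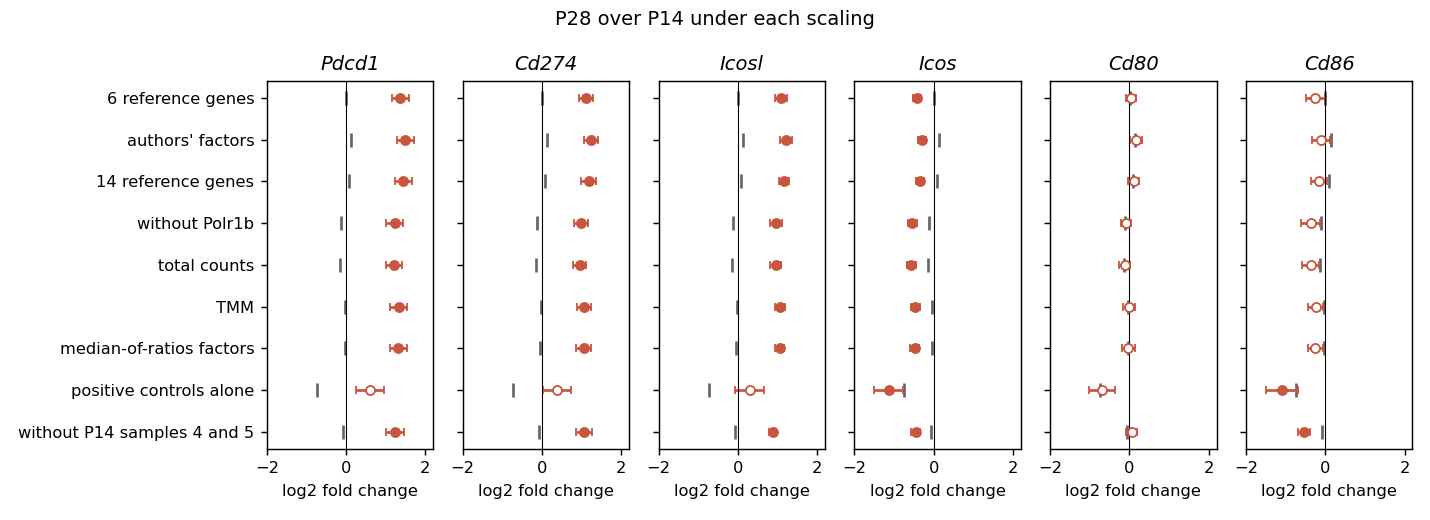
Log2 fold change, P28 over P14, with its SE (x axes) for the 6 present members under 8 scalings and without P14 samples 4 and 5 (rows); filled circles passed an FDR of 0.05, open circles did not, and grey ticks mark the median of all tested genes. Pdcd1, Cd274 and Icosl stay to the right of that median in every row, and with positive controls alone all values shift left with it.

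The genes most like each member were those with the highest correlation of their deviations from the age means, over the 12 samples, on the log2 scale. These are descriptions from samples that share lanes and scale factors. For Cd274 they were Mx1, an interferon-induced GTPase (r = 0.93), and Ifit2, an interferon-induced RNA-binding protein (r = 0.88). P14 sample 25 held the highest Cd274 of its age and also 365 scaled counts of Mx1 and 189 of Ifit2, where the P14 medians were 111 and 49.9, and P28 sample 138 was the highest P28 sample for all 3 genes. Between the ages Cd274 rose, while neither Mx1 nor Ifit2 passed the test. Mx1 averaged 154 ± 105 at P14 and 91.3 ± 23.1 at P28 (log2 fold change -0.76 ± 0.33, adjusted p = 0.0923), with medians of 111 and 86.3. Ifit2 was at -0.34 ± 0.37 (adjusted p = 0.556), with medians of 49.9 at P14 and 55.0 at P28.

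For Cd86 the most alike were Entpd1, the ectonucleotidase CD39 (r = 0.99), and Blnk, an adaptor of antigen receptor signalling (r = 0.99), and both were low in P14 samples 4 and 5. Among the members, Icosl and Cd86 deviated together (r = 0.92), though only Icosl rose with age. P14 samples 4 and 5 were the lowest of their age for both of these genes, and r without them is not given here. Icosl was most like Psmb10, an immunoproteasome subunit (r = 0.97), and Fcgr2b, the inhibitory Fc receptor (r = 0.96). Without P14 samples 4 and 5, these were 0.89 for Psmb10 and 0.79 for Fcgr2b. Pdcd1 was most like Ccl7, a monocyte-attracting chemokine (r = 0.79), which fell with age (-0.54 ± 0.14, adjusted p = 0.00882), and Cd5, a surface inhibitor of antigen receptor signalling (r = 0.75), which rose. At P14, Cd5 lay near background, above the lane threshold in 3 of 6 samples. Icos was most like C1ra, a complement protease (r = 0.83), and Cd9, a tetraspanin (r = 0.78), and Cd80 was most like Ltbr, the lymphotoxin beta receptor (r = 0.73), and Ikbkap (r = 0.70). Without P14 samples 4 and 5 the order changed: for Cd80, Ltbr stood at place 11 and Ikbkap at 16, Fcgr2b at 6 for Icosl, Blnk at 6 for Cd86 and C1ra at 3 for Icos, while Pdcd1 and Cd274 kept their first 2 genes. Pdcd1 and Cd274 correlated at 0.56 and Icos with Icosl at 0.62.

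**Figure D5:**
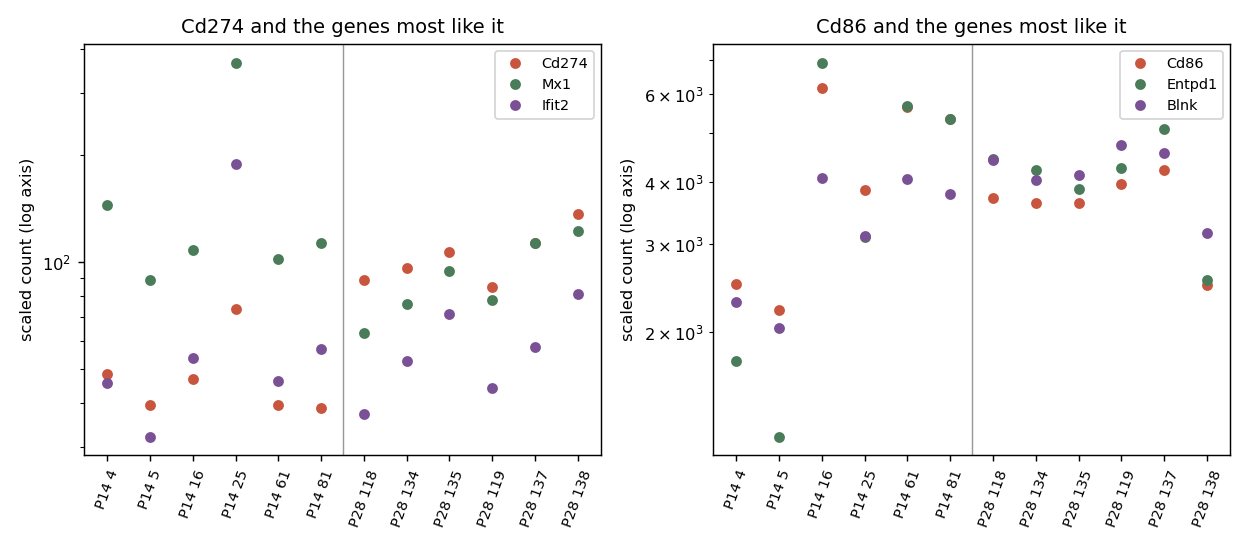
Scaled counts on a log axis (y axis) in each of the 12 samples (x axis, P14 left of the line) of Cd274 with Mx1 and Ifit2 and of Cd86 with Entpd1 and Blnk. P14 sample 25 is the highest of its age for Cd274, Mx1 and Ifit2, and P14 samples 4 and 5 are the lowest of their age for Cd86, Entpd1 and Blnk.

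Other co-signalling genes were examined from a fixed list of 42 names, of which 24 were in the table and 13 present. Of the 13, 2 rose, 1 fell and 10 did not pass, with a median log2 fold change of -0.015 against 0.0026 for all genes and 30.6% of all genes called. Cd5 rose from 20.7 ± 5.17 to 44.8 ± 10.2 scaled counts (1.07 ± 0.20, adjusted p = 0.000821). It exceeded the lane threshold in 3 of 6 P14 and 6 of 6 P28 samples, so its fold rests on P14 values near background. Cd96, an NK and T cell receptor for nectin-family ligands, exceeded the lane threshold in 0 of 6 P14 and 6 of 6 P28 samples. Its P28 mean, 33.96 ± 6.18 scaled counts, was 1.57-fold the mean lane threshold at P14 on that scale. The rise is therefore given only as at least 1.57-fold. Ceacam1, an inhibitory adhesion receptor, fell from 1043 ± 141 to 716 ± 59.7 (-0.55 ± 0.11, adjusted p = 0.00185). Cd40, Tnfrsf9, Cd2 and Slamf7 exceeded the lane threshold in 0 of 12 samples. With positive controls alone 0 of the 13 were called higher and 4 lower. Leaving out P14 samples 4 and 5 gave 2 higher and 3 lower.

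Of 36 names of proteins that act downstream of these receptors, 20 were in the table and 16 present, and 2 rose, 3 fell and 11 did not pass, a share near the 30.6% of all genes. Ptpn6, the phosphatase SHP-1 that inhibitory receptors recruit, rose from 5703 ± 318 to 7803 ± 949 scaled counts (0.45 ± 0.10, adjusted p = 0.00275, and -0.26 with positive controls alone). Rela, an NF-kB subunit, rose as well (0.47 ± 0.15, adjusted p = 0.0224), a call lost without P14 samples 4 and 5 (0.36, adjusted p = 0.0625) or without Polr1b (0.36, adjusted p = 0.0888), and turned to -0.32 with positive controls alone. The Src-family kinases Lck (-1.01 ± 0.15) and Fyn (-1.48 ± 0.20) and the NF-kB subunit Nfkb1 (-0.68 ± 0.18) fell. The median of the 16 was 0.0058.

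Cytokine signals and factors known to set the levels of B7 ligands were taken from a list of 45 names, with 41 in the table and 35 present, of which 3 rose, 2 fell and 30 did not pass (median 0.053, with 30.6% of all genes called). Those that rose were Tnf, the feedback inhibitor Socs3 and Rela, and those that fell were Nfkb1 and Relb. The calls of Tnf and Socs3 were lost with positive controls alone, where 0 of the 35 were called higher and 9 lower, against 35% of all genes lower. Ifng, the cytokine best known for inducing PD-L1, exceeded the lane threshold in 2 of 12 samples. The chains of its receptor, picked out after their values were seen, did not pass: Ifngr1 was at -0.16 ± 0.13 (adjusted p = 0.406) and Ifngr2 at 0.24 ± 0.16 (adjusted p = 0.275, and -0.57 with positive controls alone). Ifngr1 passed as lower in 3 alternatives: without P14 samples 4 and 5 (-0.32), with total counts (-0.31) and with positive controls alone (-0.96), with adjusted p from 0.0147 to 0.033. Leaving out P14 samples 4 and 5 gave 2 higher and 8 lower of the 35, where 18.6% of all genes were higher and 24.6% lower.

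Genes of other cell types were read beside the receptors. For the calls in these lists, the shares over all 366 genes were 16.7% higher and 13.9% lower. With positive controls alone they were 2.19% higher and 35% lower. The panel held 19 T cell genes, of which 11 were present, with Cd5 and Il7r higher and Lck lower at P28. With positive controls alone 0 of the 11 were higher and 2 lower, Il7r being at 0.32 (adjusted p = 0.44) and Cd5 at 0.33. Cd3e, Cd2 and Gata3 exceeded the threshold in 0 of 12 samples, Cd247 and Zap70 in 1, Cd8a in 2, Cd3d in 3 and Cd4 in 4. Sums of each list include background, which was not subtracted, and a negative probe averaged 12.1 scaled counts at P14 and 12.3 at P28. The 19 genes summed to 1736 to 3511 scaled counts at P14 and 4976 to 6148 at P28. Most of that sum was Il7r, and the other 18 summed to 489 to 814 and 623 to 791, which overlapped. Of 7 dendritic cell genes 5 were present, Itgax and Cd83 higher, with sums of 2082 to 4415 and 3686 to 4941, while Xcr1 exceeded the threshold in 1 of 12 samples and Ccr7 in 4. Of 12 B cell genes 8 were present, Cd79a higher and Cd79b lower (sums of 2782 to 4867 and 3688 to 5144), and Pax5 and Cr2 exceeded the threshold in 0 of 12.

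Of the 11 NK cell genes 6 were present. All 11 summed to 151 to 311 scaled counts at P14 and 316 to 419 at P28, without overlap. Background, not subtracted, makes up much of sums this low. Klrd1 was higher, above the threshold in 2 of 6 samples at P14 and 6 of 6 at P28. Klrk1 and Gzma were lower, each above it in 5 of 6 at P14 and 0 of 6 at P28. Their falls are therefore given only as at least 1.49-fold and 1.10-fold. Gzmb and Klrb1 exceeded the threshold in 0 of 12 samples, Klra8 in 1, and Eomes and Klra1 in 2. Klrc1 exceeded it in 5, Klrc2 in 10 and Prf1 in 11. Without Klrd1 the sums of the other 10 overlapped, at 139 to 302 and 215 to 309. The 7 genes of monocytes and border macrophages, 5 of them present, summed to 300.4 to 496 and 382 to 525, with Ccl24 higher and Itgal lower. Itgal exceeded the threshold in 6 of 6 samples at P14 and 0 of 6 at P28, so its fall is given only as at least 1.56-fold. The call of Ccl24 was lost without Polr1b (0.43, adjusted p = 0.0544) and with total counts (0.40, adjusted p = 0.0899). Of 5 endothelial and mural genes 3 were present, Pdgfrb higher and Cdh5 lower, with sums of 2127 to 3384 and 1897 to 2987. The call of Pdgfrb (0.41, adjusted p = 0.0296) was lost without any 1 of P14 samples 4, 25 and 61 and P28 samples 118, 135, 137 and 138, at 0.38 to 0.42. The microglial list summed to 272992 to 344694 and 362374 to 397161, also without overlap, with Ctss and Trem2 higher and 9 of 11 not passing. Without Ctss these sums overlapped too, at 238681 to 300031 and 268690 to 304311, and with positive controls alone Ctss was at 0.42 (adjusted p = 0.268) and no longer passed. The part of other cells in the values of Pdcd1, Icos, Cd274 and Icosl was not tested.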

How the data were processed

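Raw counts of 573 probes in 12 samples were used: 545 immune genes, 14 reference genes, 8 negative and 6 positive controls. The input was 2 ng of RNA, amplified as cDNA in 5 rounds of PCR, per the labels' protocols. PCR copies are not separate molecules, and counting error alone understates the error. The deposited raw counts were not scaled by the authors. A second deposited table holds values that the authors scaled to positive controls and reference genes, per the labels, used here as a score. It also gives the authors' ratio of the age means and, per the file headers, their p-value for each gene, which was not used. Sample titles gave the age groups.

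Counts were scaled to the geometric mean of Alas1, Gapdh, Oaz1, Polr1b, Sdha and Tbp, the 6 genes the design text lists (it counts 5), and tested with edgeR 4.0.16 in R 4.3.3 (glmQLFit and glmQLFTest), with age as the only term. Alternatives were DESeq2 1.42.0, limma 3.58.1, other scalings, backgrounds, presence rules and pseudocounts, and left-out samples. Sums of markers without 1 gene were added after seeing the data. The tests were checked on simulated data. The members and lists were chosen with earlier results of these data known. Genes named by rule are the members, the reference genes, called genes of the lists and the 2 genes most like each member. Outside that rule are uncalled genes of the lists named for their detection, and the chains of the interferon gamma receptor. Of the members, 9 matched RefSeq by accession, and 0 sample columns matched no sample.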

Additional observations from a re-analysis of the deposited data

Results flagged for a closer look

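Scaled counts of the 9 members and the 2 ligand to receptor ratios were examined for single samples far from the rest, in 22 groups of 6 samples, and 3 were found. Chance alone marks about 1 in 20 such groups. P14 sample 25 had 73.8 scaled counts of Cd274, and the other P14 samples had 38.8 to 48.2. P14 sample 61 had a log2 ratio of Cd274 to Pdcd1 of -0.49, and the other P14 samples had 0.17 to 0.55. P28 sample 138 had 2484.5 scaled counts of Cd86, and the other P28 samples had 3618 to 4231.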

How the results depend on the processing

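Pdcd1, Cd274 and Icosl kept their call in 27 of 28 alternatives and Icos in 28 of 28. The exception, positive controls alone, gave 0.61, 0.39 and 0.30 for the first 3, and -1.09 for Cd86, called there and without P14 samples 4 and 5 (-0.54). Cd80 changed sign without Polr1b (-0.084), with total counts (-0.12), TMM (-0.021), median-of-ratios factors (-0.026) and positive controls alone (-0.69), and ranged from -0.055 to 0.092 with 1 sample left out. The Icosl to Icos ratio was lowest at 1.34, without P14 samples 4 and 5, and passed in every alternative run, and that of Cd274 to Pdcd1 between -0.38 and -0.16 with 1 sample left out, past the threshold only without P14 sample 61. Of the ratios added later, Cd274 to Icosl changed sign with negative probes subtracted (0.29) and without P14 samples 4 and 5 (0.21), and Cd86 to Icos without those samples (-0.084).

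Of all 366 genes, those higher numbered 93 with the authors' factors and 8 with positive controls alone against 61, and those lower 26 with limma on the authors' values, 96 with total counts, 128 with positive controls alone and 90 without P14 samples 4 and 5 against 51. Calls among other co-signalling genes (3) were 1 where all samples had to exceed the threshold and 5 without P14 samples 4 and 5. Among downstream genes (5) they were 8 with limma on the authors' values. Among cytokine signals (5) they were 8 with DESeq2, 11 with limma on the authors' values, the authors' factors or 14 reference genes, 10 with total counts or without P14 samples 4 and 5, and 9 with TMM, median-of-ratios factors or positive controls alone. With limma on the authors' values the calls were 1 for NK cell, 4 for dendritic cell and 4 for microglial markers (3, 2 and 2 in the main test). The dendritic cell calls were also 4 with the authors' factors, and 1 with positive controls alone or where all samples had to exceed the threshold, and under that last rule the B cell and monocyte calls were 1 each against 2. The B cell calls were 4 without P14 samples 4 and 5, the monocyte calls 4 with DESeq2 and 2 to 4 with 1 sample left out (4 without P14 sample 16). The endothelial calls were 1 without Polr1b or P14 samples 4 and 5, and 1 to 2 with 1 sample left out, and the microglial calls 4 with 14 reference genes and 5 with total counts. With positive controls alone, Ptpn6 was -0.26, Rela -0.32, Cd79a -0.0095, Cd83 -0.12, Ccl24 -0.14, Pdgfrb -0.35, Trem2 -0.065 and Ifngr2 -0.57. The cause of these changes was not tested. No paired analysis was possible because the ages share no sample numbers. Raw counts of 4 to 31 for Cd28, Ctla4 and Pdcd1lg2 leave them at background.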
